A study of Mus musculus with 8 samples.

Results

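The interleukin and interleukin receptor genes of the parietal bone, the paired flat bone of the skull roof, were described in mouse pups given an antibody that blocks CSF1R and in pups given an isotype control antibody. The genes were chosen by name: every row of the count table whose symbol begins with Il and a digit, leaving out Il34, Il7 and Il7r, which gave 81 of 27133 rows. The anti-CSF1R group had 4 libraries (numbered 7, 8, 9 and 10) and the isotype group had 4 (2, 3, 4 and 5). All came from C57BL6J pups dosed transcranially on postnatal days 2, 4 and 6, then perfused and sampled on day 9. The antibody was given to deplete myeloid cells, the lineage of macrophages and osteoclasts, and both groups received antibody injections. The labels state neither clone, dose, sex nor litter, and leave unsaid whether the 4 libraries of a group came from 4 pups; p-values cover the spread among these libraries, which may be technical.

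Interleukins are secreted messengers, mostly between blood cells, and they act through receptors built from a chain that binds the ligand and a chain shared by many ligands. The shared chains sort the family: gp130 (Il6st) serves IL-6 and IL-11, and the common gamma chain (Il2rg) serves IL-2, IL-4, IL-15 and IL-21. The common beta chains serve IL-3 and IL-5, and IL10RB serves IL-10 and IL-22. In bone, IL-1 and IL-6 are known to promote osteoclast formation, and IL-11 signalling supports bone formation. Several members restrain the system as an antagonist (IL1RN) or as decoys (IL1R2, IL18BP and IL13RA2), which bind a receptor or a ligand without signalling.

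Library totals were between 57.5 M and 69.1 M counts. Osteoblast and osteocyte markers (8 genes, such as Dmp1 and Ibsp) summed to 6946 to 8150 CPM (a gene's counts relative to the scaled library total) with anti-CSF1R. With isotype they summed to 6724 to 8412 CPM, which goes with bone tissue but does not single out the parietal bone. Csf1r, the gene of the antibody's target, stood at 39.4 to 64.4 CPM with anti-CSF1R and at 238 to 549 CPM with isotype. The antibody acts on the protein, so this RNA does not measure the blockade itself. The libraries isotype 3 and isotype 4 differed most from the remaining 6: 32.8% of the 17028 genes tested were higher in both than in any other library and 36.5% were lower in both. Most log2 fold changes below are therefore also given with isotype 2 and 5 only. That choice was made from the values themselves, and isotype 2 and 5 were the isotype pair most alike. Adjusted p-values of that fit are therefore a description and not independent support. In bulk RNA, fewer cells of a type and less RNA per cell cannot be told apart.

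Many interleukin genes had few counts or none. Of the 81 members, 13 had no count in any library, among them Il17a, Il3, Il9, Il21, Il22 and Il31, which are mainly lymphocyte products. A count of 0 in a library allows up to 3 counts, or 0.0396 to 0.0573 CPM, and, where both mates of a pair were counted, up to 6 counts, or 0.0792 to 0.115 CPM. A further 16 had counts too low to be tested, 14 counts or fewer in every library. Il6, the classic ligand of gp130, was among them, with 12, 12, 14 and 4 counts in anti-CSF1R libraries 7 to 10 and 0, 6, 2 and 4 counts in isotype libraries 2 to 5. The other 52 passed the filter on low counts, 15 of 37 ligands and antagonists and 34 of 41 receptors and decoys, together with Il4i1, Il4i1b and Il1bos, which are neither. Receptors were the abundant part of the family. A mean of at least 10 CPM was reached by 15 of the 34 tested receptors and decoys and by 2 of the 15 tested ligands and antagonists, Il12a and Il16.

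Per kilobase of transcript, gp130 and the IL-11 receptor led. Il6st averaged 28.9 CPM per kilobase with anti-CSF1R and 21.7 with isotype, and Il11ra1, the chain that gives gp130 its specificity for IL-11, 16.9 and 30.2. Il6st was the higher of the 2 in all 4 anti-CSF1R libraries, while their isotype libraries overlapped. Il10rb followed with 10.7 CPM per kilobase with anti-CSF1R and 15.4 with isotype, then Il12a, with 10.2 CPM per kilobase over all 8 libraries, and Il18bp, with 8.00 with anti-CSF1R and 11.3 with isotype. Il6ra, the chain that gives gp130 its specificity for IL-6, was far lower, at 0.297 CPM per kilobase with anti-CSF1R and 0.538 with isotype. The bone thus carried RNA for gp130 and the IL-11 receptor at levels far above that of the IL-6 receptor chain.

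**Figure D1:**
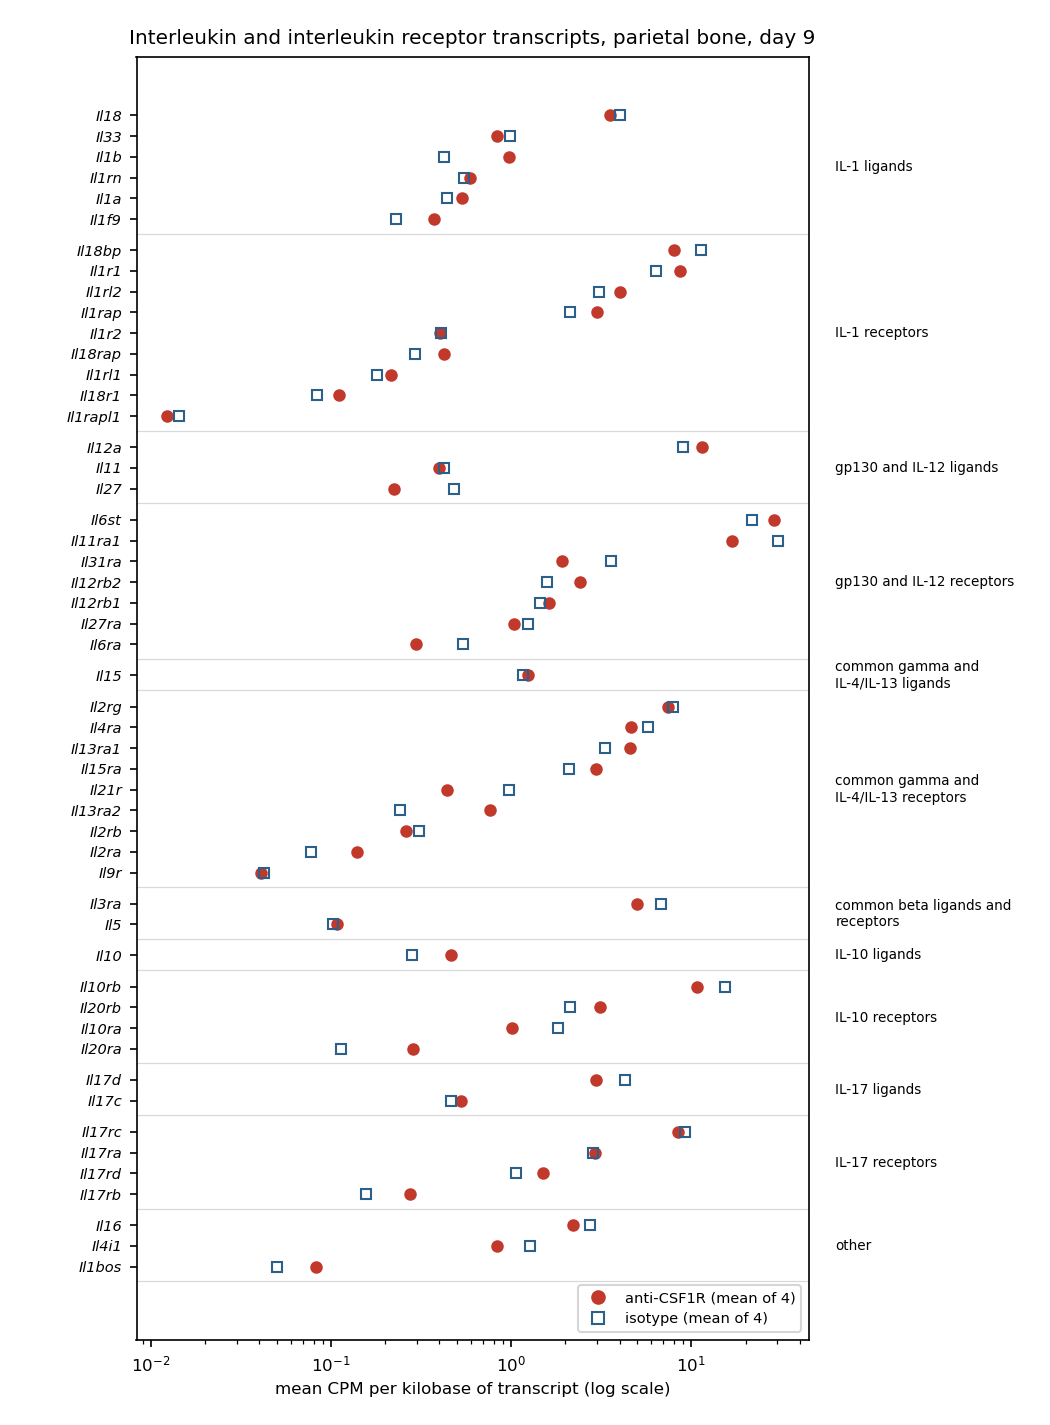
Mean CPM per kilobase of transcript (log axis) of the 51 tested interleukin genes with an annotated length, by receptor family, as red circles for anti-CSF1R and open blue squares for isotype (means of 4 libraries, no error shown). Il6st and Il11ra1 lie furthest right and Il1rapl1 furthest left.

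With anti-CSF1R, 1 of the 52 tested interleukin genes was lower and 0 were higher (edgeR, adjusted p under 0.05 over all genes). That is 1.92% of the members, beside 0.846% of all 17028 genes (0.822% lower and 0.0235% higher), and a single gene is no result about the family. At an unadjusted p under 0.05, edgeR had 7 members lower and 7 higher, which is 26.9%, beside 17.9% of all genes. The median log2 fold change of the members was 0.06, against 0.03 over all genes tested.

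Other methods moved these counts. DESeq2 called 2 members lower and 3 higher after adjustment, or 9.62%, beside 4.56% of all genes (3.69% lower and 0.869% higher). With limma-voom 0 members passed in either direction, with 6 lower and 7 higher at an unadjusted p under 0.05, or 25%. Over all genes, limma-voom had 19.3% at that unadjusted p and 0.681% after adjustment (0.652% lower and 0.0294% higher). With isotype 2 and 5 only, 2 of 53 members were lower (Il21r and Il10rb) and 0 higher, or 3.77%, beside 3.06% of all genes (2.38% lower and 0.679% higher). With an offset for GC content and transcript length, 0 were lower and 2 higher (Il13ra2 and Il20ra), or 3.85%, beside 2.65% of all genes (2.16% lower and 0.493% higher). The groups did not overlap in 12 of the 52 members, or 23.1%, beside 15.0% of all genes (8.34% lower and 6.61% higher). Lower without overlap were Il10rb, Il11ra1, Il18bp, Il21r, Il27 and Il6ra, and higher without overlap were Il13ra2, Il17rb, Il17rd, Il1b, Il20ra and Il6st.

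The member that fell was Il21r, the receptor chain that pairs with the common gamma chain to bind IL-21, a T cell cytokine that acts on B cells, T cells, NK cells and some myeloid cells. It had 1.22, 1.08, 1.15 and 0.924 CPM in anti-CSF1R 7 to 10, against 1.98, 2.14, 2.61 and 2.94 CPM in isotype 2 to 5. Every anti-CSF1R library was below every isotype library, and isotype 3 and 4 lay between isotype 2 and 5. The group means were 1.09 ± 0.126 and 2.42 ± 0.440 CPM (SD, n = 4 each), 2.21-fold lower with anti-CSF1R (log2 fold change -1.14 ± 0.21 SE, edgeR adjusted p = 0.0436). Leaving out isotype 3 and 4 put the log2 value at -1.17 (edgeR adjusted p = 0.0251). The GC and length offset gave -0.89 and ended the call (edgeR adjusted p = 0.0872). The call was also lost without any single anti-CSF1R library (adjusted p of 0.140 to 0.175) and without isotype 3, 4 or 5 (0.0589, 0.105 and 0.0554). Over 17 alternatives, 6 of which passed, the adjusted p ranged from 7.41e-06 (DESeq2) to 0.175 and the log2 fold change from -1.25 to -0.89. Its ligand gene Il21 had no count in any library. Of 8 macrophage markers, 5 fell (Adgre1, Cd68, C1qa, C1qb and C1qc), beside 0.822% of all genes. All 8 summed to 179 to 209 CPM with anti-CSF1R and 321 to 440 CPM with isotype. Most of that sum with anti-CSF1R came from Mertk, at 96.4 and 66.2 CPM with anti-CSF1R and isotype, and Cd163, at 41.7 and 28.6 CPM, neither of which passed (log2 fold change 0.54 each, edgeR adjusted p = 0.295 and 0.299). B cell markers summed to 18.7 to 35.1 and 24.0 to 41.8 CPM and T and NK cell markers to 1.02 to 2.38 and 1.01 to 3.72 CPM, with 0 of 6 and 0 of 4 tested genes past the edgeR threshold. The part of these cells in the Il21r value was not tested.

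Other common gamma and IL-4/IL-13 receptor genes did not pass on all libraries. The common gamma chain itself, Il2rg, had a log2 fold change of -0.08, and of -0.05 on isotype 2 and 5. Il4ra, the signalling chain of the IL-4 and IL-13 receptors, stood at 24.2 ± 1.49 and 30.0 ± 12.2 CPM with anti-CSF1R and isotype (log2 fold change -0.31, edgeR adjusted p = 0.397). Its partner for IL-13, Il13ra1, stood at 16.8 ± 1.44 and 12.3 ± 6.51 CPM (0.46, 0.377). Both values turned in sign with isotype 2 and 5 only, to 0.17 and -0.09. Of the ligands of this group, only Il15, which sustains NK cells and memory T cells, was tested, at 2.35 ± 0.170 CPM with anti-CSF1R and 2.21 ± 1.03 CPM with isotype (log2 fold change 0.08, edgeR adjusted p = 0.852). Its sign turned too when isotype 3 and 4 were left out (-0.37).

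Il13ra2, the decoy receptor that binds IL-13 with high affinity, had the highest log2 fold change among the tested members. It had 1.57, 1.81, 1.77 and 1.77 CPM in anti-CSF1R 7 to 10, against 0.479, 0.458, 0.264 and 0.990 CPM in isotype 2 to 5. The groups did not overlap, and isotype 5 was the highest of its group. The means were 1.73 ± 0.107 and 0.548 ± 0.310 CPM, a 3.13-fold difference that did not pass (log2 fold change 1.65 ± 0.36 SE, edgeR adjusted p = 0.0837). DESeq2 put it past the threshold (adjusted p = 4.04e-04), as did the GC and length offset (log2 fold change 1.16, edgeR adjusted p = 0.0290) and the fit without isotype 5 (2.11, 0.0188). Without isotype 3 and 4 it missed (1.22, 0.0621). Its adjusted p-values spanned 4.04e-04 to 0.255 in 17 alternatives. Il13 had 6 counts or fewer in every library and was not tested.

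In the IL-10 receptor group, Il20ra and Il10rb had log2 fold changes of opposite sign, and neither passed on all libraries. Il20ra is a receptor chain for IL-19, IL-20 and IL-24. It had 0.595, 0.581, 0.505 and 0.726 CPM in anti-CSF1R 7 to 10, against 0.223, 0.229, 0.165 and 0.339 CPM in isotype 2 to 5. All 4 anti-CSF1R libraries were above all 4 isotype libraries (log2 fold change 1.31 ± 0.30 SE, edgeR adjusted p = 0.0882). DESeq2 called it (adjusted p = 0.00760), and so did edgeR under the GC and length offset (1.27, adjusted p = 0.0498). Without isotype 3 and 4 it missed (1.08, 0.182), and 16 alternatives spanned adjusted p-values of 0.00760 to 0.284. Its usual partner Il20rb stood at 8.69 ± 1.19 CPM with anti-CSF1R and 5.93 ± 1.86 CPM with isotype (log2 fold change 0.55, edgeR adjusted p = 0.278, or 0.20 when isotype 3 and 4 were left out). Il20 and Il24 had no count in any library and Il19 had 4 counts or fewer.

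Il10rb, the signalling chain shared by IL-10, IL-22 and the lambda interferons, had 29.5, 30.1, 30.7 and 29.0 CPM in anti-CSF1R 7 to 10, against 38.1, 50.9, 46.9 and 35.8 CPM in isotype 2 to 5. The anti-CSF1R libraries were close to each other and all below the isotype libraries, of which 3 and 4 were the highest. On all libraries the log2 fold change was -0.52 ± 0.15 SE (edgeR adjusted p = 0.190). Without isotype 3 and 4 it was smaller in size yet past the threshold (-0.31, edgeR adjusted p = 0.0246), and DESeq2 called it as well (-0.56, 0.0339). The adjusted p of 17 alternatives spanned 0.0246 to 0.451. Il10ra, the chain that binds IL-10, had 3.57, 5.18, 3.09 and 2.25 CPM in anti-CSF1R 7 to 10, against 5.04, 8.06, 6.70 and 5.65 CPM in isotype 2 to 5. Its groups overlapped, since anti-CSF1R 8 was above isotype 2 (log2 fold change -0.85, edgeR adjusted p = 0.242, or -0.60 when isotype 3 and 4 were left out). Il10 itself, the ligand that restrains macrophages, stood at 0.605 ± 0.144 CPM with anti-CSF1R and 0.369 ± 0.236 CPM with isotype (log2 fold change 0.72, edgeR adjusted p = 0.317). When isotype 3 and 4 were left out, the log2 fold change of Il10 was 1.44 (0.148).

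The sequences before the starts of Il13ra2, Il20ra and Il21r are shown because these genes had the highest and lowest log2 fold changes among the receptors. They are the 250 bases before the RefSeq start on GRCm38.p6, 5′ to 3′ on the gene's strand. Capitals mark matches to TGANTCA, the AP-1 motif, searched on both strands (its reverse complement has the same letters). The motif was chosen after the values were seen.
Il13ra2, chrX:147429193-147429442, minus strand: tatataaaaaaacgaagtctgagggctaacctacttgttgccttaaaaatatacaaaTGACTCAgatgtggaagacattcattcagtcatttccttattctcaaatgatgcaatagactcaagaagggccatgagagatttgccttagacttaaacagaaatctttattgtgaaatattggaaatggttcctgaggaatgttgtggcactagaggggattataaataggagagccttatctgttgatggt
Il20ra, chr10:19712337-19712586, plus strand: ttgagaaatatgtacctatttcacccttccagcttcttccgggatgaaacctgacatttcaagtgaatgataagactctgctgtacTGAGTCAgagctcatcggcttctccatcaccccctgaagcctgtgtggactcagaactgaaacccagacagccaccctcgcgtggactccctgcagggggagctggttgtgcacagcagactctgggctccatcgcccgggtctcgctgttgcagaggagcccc
Il21r, chr7:125603179-125603428, plus strand: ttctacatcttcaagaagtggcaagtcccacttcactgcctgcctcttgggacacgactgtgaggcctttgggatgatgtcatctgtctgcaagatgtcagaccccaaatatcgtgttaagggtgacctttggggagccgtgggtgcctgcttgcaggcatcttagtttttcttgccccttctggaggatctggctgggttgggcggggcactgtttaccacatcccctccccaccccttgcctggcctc
Il13ra2 held 1 match, starting 193 bases before the start, and Il20ra 1, starting 164 bases before it, while these letters were not in the Il21r window. Of the 66 members with such a window, 14 held the motif (21.2%), beside 7.82% of all 27025 genes with a window. The 66 include members too low to be tested: of the 43 tested members with a window, 8 held it. A link between the motif and the log2 fold changes was not tested. A match is a string of letters and not a shown binding site.

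**Figure D2:**
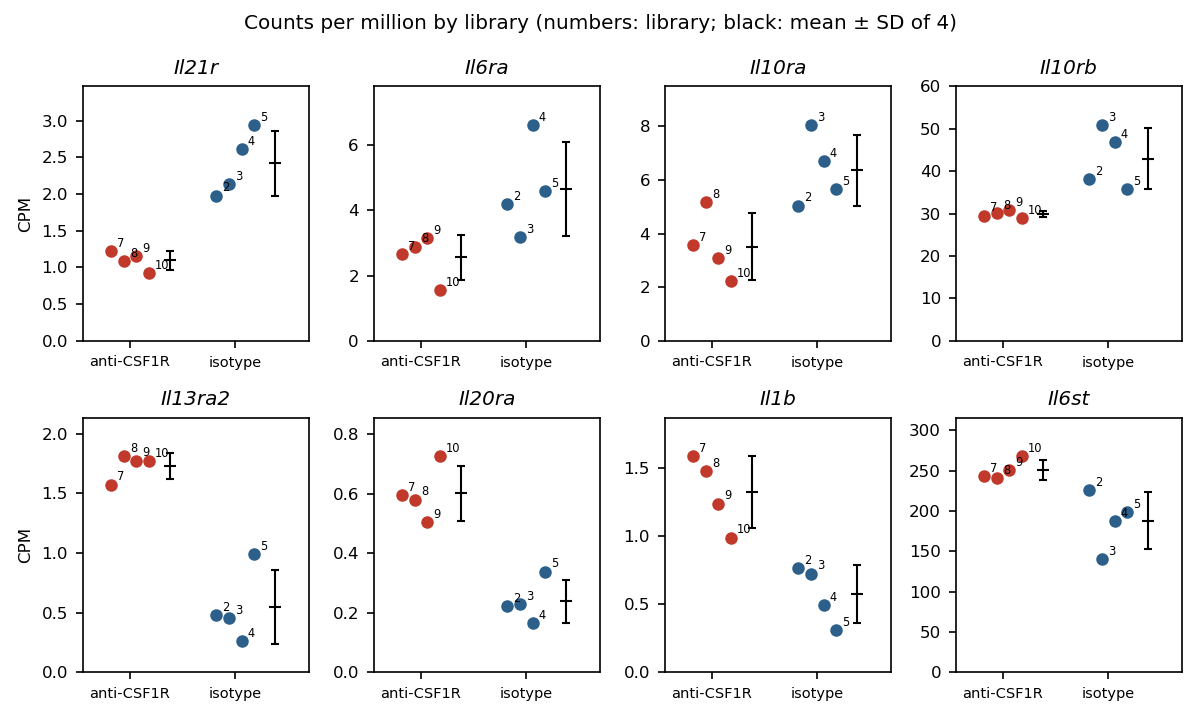
CPM (linear axis from 0) of 8 interleukin genes in each library, anti-CSF1R in red on the left and isotype in blue on the right, with the library number beside each point and the mean ± SD of 4 libraries in black. The groups are apart in Il21r, Il6ra, Il10rb, Il13ra2, Il20ra, Il1b and Il6st and overlap in Il10ra, where anti-CSF1R 8 had 5.18 CPM and isotype 2 had 5.04 CPM.

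Among the IL-1 family ligands, Il1b differed the most. This gene encodes a main inflammatory product of monocytes, macrophages and neutrophils. It had 1.59, 1.48, 1.24 and 0.990 CPM in anti-CSF1R 7 to 10, against 0.766, 0.725, 0.495 and 0.311 CPM in isotype 2 to 5. All 4 anti-CSF1R libraries lay above the isotype libraries, with a 2.31-fold difference in means that did not pass (log2 fold change 1.21 ± 0.32 SE, edgeR adjusted p = 0.151). Of 17 alternatives, with adjusted p-values of 0.0163 to 0.393, DESeq2 alone called it. When isotype 3 and 4 were left out, its log2 fold change was 1.31 (edgeR adjusted p = 0.115). Neutrophil markers summed to 93.6 to 279 CPM with anti-CSF1R and 102 to 267 CPM with isotype, 0 of 8 past the edgeR threshold. No source used here gives the strand setting of the counting, so reads of Il1b and of Il1bos, its antisense neighbour (log2 fold change 0.71, edgeR adjusted p = 0.374, and 0.91 on isotype 2 and 5), may not be fully separated.

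The natural antagonist Il1rn had 2.04, 1.82, 1.21 and 0.957 CPM in anti-CSF1R 7 to 10, against 1.09 to 1.61 CPM in the isotype libraries, of which isotype 2 was the lowest. The groups overlapped (log2 fold change 0.10 ± 0.28 SE, edgeR adjusted p = 0.800). Anti-CSF1R 7 and 8 were above every isotype library, anti-CSF1R 10 was below every one, and anti-CSF1R 9 lay among them. Il1a stood at 1.06 and 0.872 CPM with anti-CSF1R and isotype (log2 fold change 0.27, edgeR adjusted p = 0.440). Il18, an inducer of interferon gamma and the most abundant IL-1 family ligand per kilobase, stood at 3.12 ± 0.251 and 3.55 ± 1.98 CPM (-0.19, 0.712), with isotype 5 at 6.21 CPM the highest library. Il33, an alarmin released by damaged stromal cells, stood at 2.13 ± 0.488 and 2.51 ± 0.743 CPM (-0.23, 0.545), and Il1f9, listed in newer nomenclature as IL-36 gamma, at 0.615 ± 0.246 and 0.377 ± 0.180 CPM (0.69, 0.318). When isotype 3 and 4 were left out, the log2 fold changes were 0.16 for Il1rn, 0.06 for Il1a, -0.69 for Il18, -0.43 for Il33 and 0.26 for Il1f9, and none passed with edgeR. The other 4 members of this ligand group, Il1f5, Il1f6, Il1f8 and Il1f10, had no count.

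Of 9 tested IL-1 receptor and binding protein genes, 0 passed with edgeR, DESeq2 or limma-voom. Il1r1, the signalling receptor for IL-1, had 51.9, 48.5, 48.3 and 53.0 CPM in anti-CSF1R 7 to 10, against 50.7, 27.9, 24.8 and 43.9 CPM in isotype 2 to 5. Only isotype 3 and 4 were far below the rest. The log2 fold change was 0.45 on all libraries (edgeR adjusted p = 0.289) and 0.09 when both were left out (0.640). Il18bp, the secreted trap for IL-18, stood at 20.8 ± 0.950 CPM with anti-CSF1R and 29.3 ± 9.01 CPM with isotype (log2 fold change -0.50, edgeR adjusted p = 0.278, or -0.13 when isotype 3 and 4 were left out). The decoy Il1r2 stood at 0.574 and 0.577 CPM (log2 fold change 0.00, and 0.16 on isotype 2 and 5). The downstream list of IL-1 signalling and maturation genes, such as Myd88, Irak4 and Casp1, had 0 of 16 members past the edgeR threshold and a median log2 fold change of -0.26. Its smallest p-values were those of Pycard, the inflammasome adaptor (log2 fold change -1.05, edgeR adjusted p = 0.225), and Gsdmd, the pore through which IL-1 beta leaves cells (-0.68, 0.251). Without isotype 3 and 4 that median moved to -0.09, Pycard stood at -0.43 and Gsdmd at -0.29, and Casp4, an inflammatory caspase chosen for mention after its values were seen, was lower (-0.77, 0.0387).

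The values of the most abundant gp130 receptor genes changed in size with isotype 3 and 4. Il6st had 243, 241, 251 and 268 CPM in anti-CSF1R 7 to 10, against 226, 141, 187 and 199 CPM in isotype 2 to 5. The groups were apart, with isotype 2 the closest to the anti-CSF1R libraries and isotype 3 the farthest. The log2 fold change of 0.41 ± 0.17 SE (edgeR adjusted p = 0.278) shrank to 0.23 when isotype 3 and 4 were left out and to 0.01 under the GC and length offset. Il11ra1 had 46.3, 45.5, 45.4 and 38.9 CPM in anti-CSF1R 7 to 10, against 48.8, 126, 81.9 and 58.4 CPM in isotype 2 to 5. Its log2 fold change of -0.84 (edgeR adjusted p = 0.254) was -0.29 with isotype 2 and 5 only (0.157). A near-identical copy, Il11ra2, had 12 counts or fewer in every library. How reads shared between the copies were handled was not given, so they could have been assigned to either or left uncounted.

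Il6ra, the IL-6 binding chain that myeloid cells are known to carry, had 2.65, 2.89, 3.14 and 1.57 CPM in anti-CSF1R 7 to 10, against 4.20, 3.19, 6.62 and 4.58 CPM in isotype 2 to 5. The groups were just apart, at anti-CSF1R 9 and isotype 3, and the log2 fold change of -0.86 ± 0.29 SE missed the threshold (edgeR adjusted p = 0.257). It was -0.77 with isotype 2 and 5 only (0.146), a smaller change than that of Il11ra1. Isotype 3 was the lowest and isotype 4 the highest of the isotype libraries, on opposite sides of isotype 2 and 5. Among the ligands, Il11 stood at 0.773 ± 0.249 and 0.823 ± 0.160 CPM with anti-CSF1R and isotype (log2 fold change -0.09, edgeR adjusted p = 0.827). Il27, the p28 chain of IL-27 made by activated myeloid cells, stood at 0.229 ± 0.0921 and 0.489 ± 0.126 CPM without overlap (-1.07, 0.274). Its partner chain Ebi3 stood at 1.07 ± 0.467 and 1.66 ± 0.430 CPM (-0.62, 0.292). The fit on isotype 2 and 5 gave 0.15 for Il11, -0.73 for Il27 and -0.26 for Ebi3.

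Il12a, the p35 chain that IL-12 and IL-35 share, was the most abundant interleukin ligand per kilobase. It stood at 14.9 ± 2.04 CPM with anti-CSF1R and 11.7 ± 2.90 CPM with isotype (log2 fold change 0.34, edgeR adjusted p = 0.310), with isotype 3 and 4 the lowest and a log2 fold change of 0.07 without them. Il12b, the p40 chain without which IL-12 is not formed, had 14 counts or fewer in every library.

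Of the other gp130 cytokines and receptors, a list of 10 genes, 0 passed the edgeR threshold (median log2 fold change -0.41, and -0.19 with isotype 2 and 5 only). The smallest p-values were those of Lif, leukaemia inhibitory factor, and its receptor Lifr. Lif stood at 6.58 ± 1.05 CPM with anti-CSF1R and 12.5 ± 4.16 CPM with isotype (log2 fold change -0.93, edgeR adjusted p = 0.175), and Lifr at 540 ± 30.3 and 297 ± 135 CPM (0.86, 0.263). With isotype 2 and 5 only these were -0.45 and 0.41. The kinases, STAT factors and SOCS inhibitors downstream of these receptors, 21 genes, had 0 past the edgeR threshold and a median log2 fold change of -0.05, which turned to 0.07 on isotype 2 and 5. Socs2 and Socs6 had the smallest p-values in that list, at log2 values of 0.63 and 0.66, anti-CSF1R over isotype (edgeR adjusted p = 0.250 and 0.278), and of 0.32 and 0.18 on isotype 2 and 5. Stat3, the main STAT factor of gp130, stood at 163 ± 7.97 CPM with anti-CSF1R and 181 ± 21.3 CPM with isotype.

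The common beta chain group held 2 genes that fell beside the interleukin genes themselves. This list has 6 genes, of which 5 were tested, 2 were lower and 0 higher, with a median log2 fold change of -0.92. Of all genes tested, 0.822% were lower and 0.0235% higher, with a median of 0.03. The list was chosen with earlier results of these data known. Csf2rb2, the mouse beta chain specific for IL-3, had 9.10, 8.79, 8.77 and 9.74 CPM in anti-CSF1R 7 to 10, against 15.0, 16.5, 20.1 and 18.1 CPM in isotype 2 to 5. All 4 anti-CSF1R libraries were lower, by 1.91-fold (log2 fold change -0.94 ± 0.15 SE, edgeR adjusted p = 0.0267). Leaving out isotype 3 and 4 gave -0.87 (0.00182). The call was lost without any single anti-CSF1R library (adjusted p of 0.117 to 0.134), without isotype 4 (0.0766) and with library size alone (0.0735). Csf2ra, the binding chain for GM-CSF, had 7.28, 9.56, 8.02 and 5.58 CPM in anti-CSF1R 7 to 10, against 12.4, 21.0, 17.8 and 19.2 CPM in isotype 2 to 5. Its groups were apart too (log2 fold change -1.21 ± 0.22 SE, edgeR adjusted p = 0.0487), and it narrowly missed with isotype 2 and 5 only (-1.06, 0.0661). Across 17 alternatives Csf2ra had adjusted p-values of 3.30e-05 to 0.180 and Csf2rb2 of 2.85e-08 to 0.134. Csf2ra missed in 11 of the 17, among them each fit without an anti-CSF1R library and those without isotype 3, 4 or 5.

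Csf2rb, the beta chain shared by IL-3, IL-5 and GM-CSF, stood at 17.3 ± 1.13 CPM with anti-CSF1R and 32.7 ± 8.07 CPM with isotype (log2 fold change -0.92, edgeR adjusted p = 0.0710). Without isotype 3 and 4 it was past the threshold (-0.58, 0.00405), as it was under the GC and length offset (-0.80, 0.0114). The 17 alternatives spanned adjusted p-values of 9.76e-04 to 0.270. Csf2rb and Csf2rb2 are close paralogs, so shared reads may have been split between them. Il3ra, the alpha chain for IL-3, stood at 11.5 ± 0.987 CPM with anti-CSF1R and 15.8 ± 6.02 CPM with isotype (log2 fold change -0.46, edgeR adjusted p = 0.298, and 0.00 without isotype 3 and 4). Il5, the growth factor of eosinophils, stood at 0.165 ± 0.0423 and 0.158 ± 0.149 CPM (log2 fold change 0.02, and -0.77 on isotype 2 and 5), and its receptor chain Il5ra was too low to be tested. Il3 and Csf2 had no count. Of the macrophage markers 5 of 8 fell, as given beside Il21r, and of the osteoclast markers 6 of 8, beside 0.822% of all genes. The osteoclast marker sums were 2040 to 2784 CPM with anti-CSF1R and 5557 to 13239 CPM with isotype. The part of these cells in the values was not tested.

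IL-17 receptor genes did not pass in any fit run. Il17ra, the chain used by most IL-17 ligands, stood at 22.5 ± 1.58 CPM with anti-CSF1R and 22.1 ± 2.96 CPM with isotype (log2 fold change 0.03, edgeR adjusted p = 0.884), and Il17rc, its partner for IL-17A and IL-17F, at 19.3 ± 0.366 and 21.2 ± 6.17 CPM (-0.13, 0.639). Il17rb, the receptor chain for IL-25, had 0.538, 0.951, 0.721 and 0.627 CPM in anti-CSF1R 7 to 10, against 0.319, 0.305, 0.512 and 0.481 CPM in isotype 2 to 5. Its groups were apart by a small gap (log2 fold change 0.81 ± 0.30 SE, edgeR adjusted p = 0.277, or 0.82 when isotype 3 and 4 were left out). Il17rd, which also restrains FGF signalling, stood at 12.5 ± 1.10 and 8.84 ± 1.93 CPM, apart as well (0.49, 0.278). Of the ligands, Il17d stood at 3.79 ± 0.167 and 5.43 ± 1.65 CPM (-0.52, 0.278) and Il17c at 0.377 ± 0.145 and 0.332 ± 0.233 CPM (0.18, 0.844). On isotype 2 and 5 the log2 fold changes were 0.05 for Il17ra, 0.23 for Il17rc, 0.30 for Il17rd, -0.18 for Il17d and 0.25 for Il17c. The 8 IL-17 signalling genes had 0 past the edgeR threshold and a median log2 fold change of -0.05, with Traf2 (-0.57, 0.278) and Traf3ip2 (0.41, 0.278) the smallest in p. On isotype 2 and 5 the median turned to 0.11, with Traf2 at -0.18 and Traf3ip2 at 0.23.

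Il16, a chemoattractant for CD4-bearing cells, stood at 11.5 ± 1.23 CPM with anti-CSF1R and 14.4 ± 3.74 CPM with isotype (log2 fold change -0.32, edgeR adjusted p = 0.321). Il4i1, an amino acid oxidase of antigen-presenting cells that is induced by IL-4, stood at 1.89 ± 0.519 and 2.91 ± 0.910 CPM (-0.62, 0.278), and the row named Il4i1b at 36.0 ± 1.68 and 49.2 ± 17.5 CPM (-0.45, 0.290). On isotype 2 and 5 the log2 fold changes were 0.02 for Il16, -0.26 for Il4i1 and 0.03 for Il4i1b. Reads that these similarly named rows share could not be separated.

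GC content and log2 fold change varied together in the family. In 15 of the 52 tested members isotype 3 and 4 were both above the other 6 libraries, with a median GC content of 55.1% in the 14 with an annotated transcript, and all 15 had a log2 fold change below 0. In 17 members both were below the other 6, with a median GC content of 45.1%. Of these, 16 had a log2 fold change above 0, the exception being Il18. Both sets were picked by libraries of the isotype group itself, so these signs follow largely from the selection. The shares of members in the sets, 28.8% and 32.7%, were close to the 32.8% and 36.5% of all genes. Across 51 members the Spearman correlation of GC content with the log2 fold change was -0.56 on all libraries, as over all genes (-0.57), and -0.07 with isotype 2 and 5 only. The points share the same 8 libraries, so these values are a description. The median absolute log2 fold change of the members was 0.45 on all libraries and 0.22 with isotype 2 and 5 only. Over all genes of each fit it was 0.39 and 0.12. Of 52 members, 15 changed the sign of their log2 fold change, a count not made over all genes. Il21r, Il13ra2, Il20ra and Il1b were at or beyond 1 on the log2 scale, in size, both ways.

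**Figure D3:**
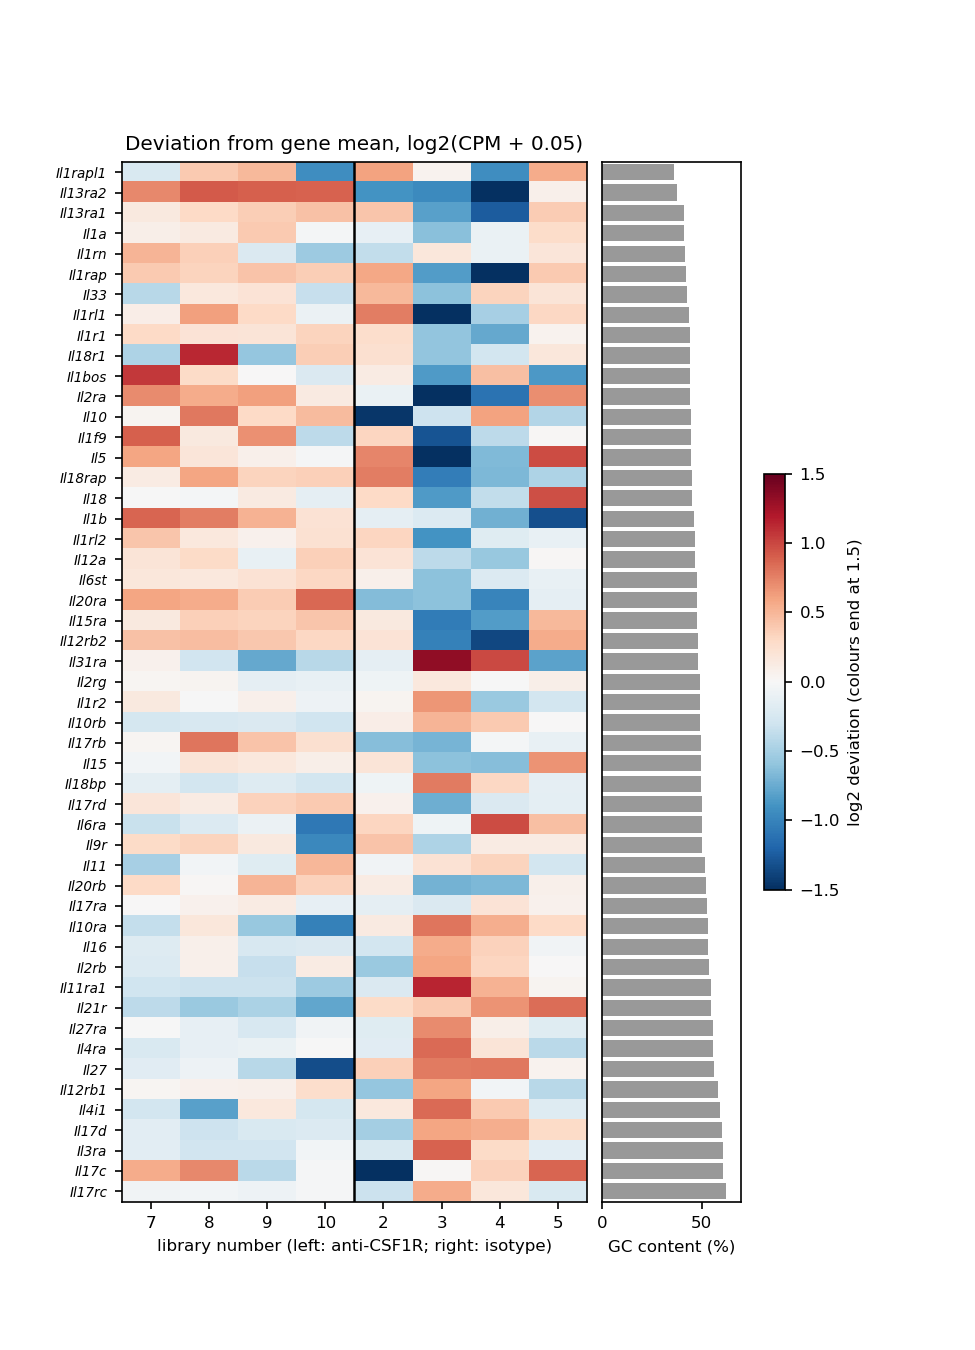
Deviation of log2(CPM + 0.05) from the gene's mean over 8 libraries (red higher, blue lower, colours ending at 1.5) for 51 tested interleukin genes, anti-CSF1R libraries left of the line and isotype libraries right of it, ordered by transcript GC content (bars, percent). Isotype 3 and 4 are mostly blue in the upper, GC-poor rows and mostly red in the lower, GC-rich rows.

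**Figure D4:**
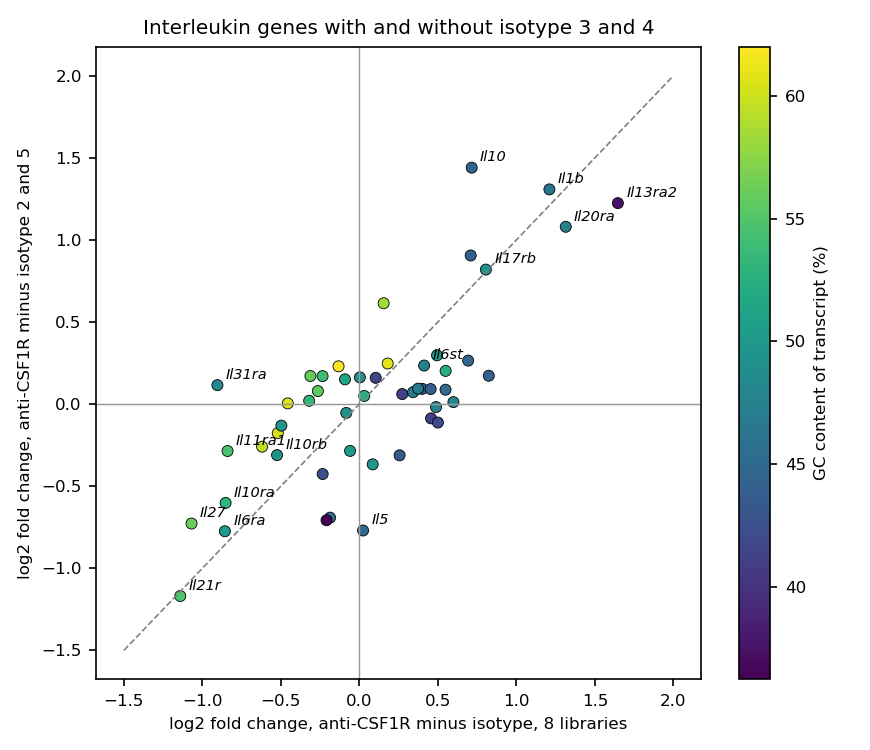
Log2 fold change, anti-CSF1R minus isotype, of 51 interleukin genes with all 8 libraries (horizontal) and with isotype 2 and 5 only (vertical), coloured by GC content of the transcript in percent; the dashed line marks equal values. Il21r lies at -1.14 and -1.17, and Il13ra2, Il20ra and Il1b lie at 1.08 or more on both axes. Il10 is the highest on the vertical axis, at 1.44, and many other genes lie closer to 0 there than on the horizontal axis.

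Of the other cell types, endothelial markers (6 genes, such as Cdh5) summed to 599 to 687 CPM with anti-CSF1R and 497 to 535 CPM with isotype, without overlap and with 0 past the edgeR threshold on all libraries, and fibroblast markers (6 genes) to 6145 to 7039 and 6612 to 8341 CPM, also with 0. Keratinocyte markers, of interest for the IL-20 and IL-36 genes, summed to 3.23 to 3.62 and 2.86 to 3.40 CPM, mostly from Krt10, with Dsg3 at 0 in every library. Mast cell and basophil markers summed to 4.42 to 8.83 and 5.00 to 13.1 CPM, neural markers to 6.07 to 9.75 and 3.32 to 7.00 CPM, and skeletal muscle markers to 3.64 to 4.36 and 3.70 to 52.0 CPM, the highest in isotype 3. The part of any of these cells in the interleukin values was not tested.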

How the data were processed

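Poly(A) RNA of parietal bone was sequenced as paired reads of 101 bp from 1 µg RNA with a stranded kit, per the labels' protocols. The authors deposited raw counts per gene symbol (27133 genes, 5009 without a count). The submitters' processing notes list STAR 2.7.10b, featureCounts 1.6.3 and both GRCm38 and GRCm39, without saying which one the counts used. How strand and multiply mapped reads were handled was not given in the sources used. Between 82.8% and 84.7% of counts from 1 to 10 were even, the pattern left by counting each mate of a pair, so the totals overstate the precision. Pairs of libraries in a group differed by a median squared difference of at least 3.98 times counting noise (0.455 under counting noise alone), so none was counted as a duplicate.

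Counts were fitted with edgeR 4.0.16 in R 4.3.3 on all genes kept by filterByExpr (17028), by the quasi-likelihood F-test with TMM factors and robust dispersion estimates. P-values were adjusted over all genes by Benjamini-Hochberg (threshold 0.05). Every adjusted p is from that fit unless DESeq2 1.42.0 or limma 3.58.1 (voom) is named. CPM use TMM library sizes, and intervals from counts of 0 (3 counts) cover counting error only. GC content and length are those of the longest GENCODE M21 transcript of a symbol, present for 94.0% of tested genes, and fed an offset per library from natural splines (5 degrees of freedom). The fits were tested on simulated counts without any shift of isotype 3 and 4, so that test does not cover such a shift. Other alternatives were RLE factors, library size alone, no filter, a filter of 1 CPM in 4 libraries, counts halved, isotype 2 and 5 only, and leaving out each library. Named genes were Il6st, Il1rn, members past the threshold on all libraries or with isotype 2 and 5 only, and in each receptor or ligand family up to 2 with the smallest p and 2 with the highest CPM. Others are mentioned to complete a family or count. The members and lists were chosen with earlier results of these data known.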

Additional observations from a re-analysis of the deposited data

Results flagged for a closer look

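Among 66 sets of 4 libraries (33 named genes in each group), 2 held a library far from the other 3 by Dixon's test, and chance alone flags about 1 in 20. Il11ra1 stood at 38.9 CPM in anti-CSF1R 10, against 45.4 to 46.3 CPM in the other anti-CSF1R libraries. Il16 stood at 13.4 CPM in anti-CSF1R 8, against 10.8 to 11.1 CPM in the other anti-CSF1R libraries.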

How the results depend on the processing

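No paired analysis was possible because the library numbers are not shared between the groups. The count of interleukin genes lower (1) was 0 with library size alone, limma-voom, no filter or the GC and length offset and 2 with DESeq2 or isotype 2 and 5 only, and 0 to 1 without each library. The count higher (0) was 3 with DESeq2, 2 with the offset, and 0 to 1 without each library. Over all genes, 140 lower became 90 (library size alone), 629 (DESeq2), 417 (isotype 2 and 5 only), 368 (offset) and 0 to 245 without each library. The 4 higher became 8 (library size alone and counts halved), 148 (DESeq2), 119 (isotype 2 and 5 only), 84 (offset) and 0 to 41. Partner genes lower (2) were 0 with library size alone, 5 with DESeq2, 1 with limma-voom or the filter of 1 CPM, and 0 to 3 without each library. Library size alone moved the median of all genes to 0.19 from 0.03.

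Of 722 log2 fold changes under alternatives, from 33 interleukin genes and 10 partner genes, 34 turned in sign, all of genes short of the threshold. With isotype 2 and 5 only these were Il11 0.15, Il13ra1 -0.087, Il15 -0.37, Il16 0.020, Il17rc 0.23, Il3ra 0.0043, Il4i1b 0.026, Il4ra 0.17 and Il5 -0.77. With the offset they were Il11 0.15, Il17ra -0.046, Il17rc 0.24, Il1r1 -0.046, Il1rn -0.42 and Il5 -0.063. Library size alone gave Il11 0.084 and Il17rc 0.055, and Il17ra was -0.00085 with RLE and -0.00089 with DESeq2. Without each library the ranges were -0.32 to 0.048 (Il11), -0.093 to 0.41 (Il15), -0.22 to 0.64 (Il17c), -0.037 to 0.10 (Il17ra), -0.28 to 0.065 (Il17rc), -0.41 to 0.23 (Il18), -0.076 to 0.27 (Il1rn) and -0.36 to 0.57 (Il5). The cause of these changes was not tested. The 16 members with few counts and the 13 with none were not tested at this depth.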
